A study of Arabidopsis thaliana with 4 samples.

Results

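The single mutants phr1 and hho2-1, each disrupted in 1 transcription factor of the phosphate starvation response, were compared with each other directly. The comparison took the deposited FPKM (fragment counts divided by the length of the transcript and the size of the library) of the 1 phr1 library against the 1 hho2-1 library, and kept every gene with at least 1 FPKM in either. This left 20390 of the 33557 genes in the table. Both lines are single mutants with a SALK T-DNA insertion in the Arabidopsis thaliana accession Col-0. The study also held 1 library of the wild type Col-0 and 1 of the double mutant hho2phr1, which took no part in the 2-fold call. Their values are given beside many results. The lists and rules for naming genes were chosen with earlier results of these data known, so the named genes are not independent of these 2 libraries. All 4 libraries were poly(A)+ RNA of plants kept for 7 days on vertical agar plates of MS medium without phosphate. Every value is therefore a level under phosphate starvation. The harvested tissue, the number of plants pooled and a phosphate-fed control are not stated in the labels.

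PHR1 is a MYB-related transcription factor of plants that binds an imperfect palindrome, the P1BS element, and switches on phosphate transporters, acid phosphatases, the SPX sensor proteins and enzymes that replace phospholipids with lipids that hold no phosphorus. SPX proteins bind PHR1 when phosphate is plentiful and hold it off its targets. HHO2 is a GARP transcription factor of the HRS1 family, whose members are known to act mainly as repressors where nitrate and phosphate signals meet in the root. A direct comparison of the 2 single mutants shows which genes differ according to which of the 2 regulators is disrupted, and the other 2 genotypes show on which side each difference lies.

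With 1 library per genotype there is no replicate check, no p-value and no standard deviation. A gene was called 2-fold higher or lower where log2(FPKM + 1) differed by at least 1, and the authors' deposited 95% intervals stand beside the call. These intervals do not hold the variation between plants. Adding 1 to each FPKM makes a log2 difference understate the fold of weakly expressed genes. Estimated depths were 45000000 fragments for hho2-1 and 39500000 for phr1, against 48100000 for Col-0 and 40700000 for hho2phr1. Of the 15 reference genes listed, 13 were a little higher in phr1, with a median log2 difference of 0.09, which falls below 0 after scaling to equal sums, and a range from -0.06 to 0.43. Root markers were found in all libraries: the endodermal gene CASP1 lay between 61.2 and 81.4 FPKM, and the 12 root markers summed to between 252.5 and 304.3 FPKM. The 28 photosynthesis genes that marked the shoot summed to 23977 FPKM in hho2-1, 21636 in phr1, 23078 in Col-0 and 29556 in hho2phr1. The 6 flower and pollen markers found in the table summed to between 6.29 and 9.55 FPKM, mostly from SEP3 at 4.63 to 7.16 and PI at 1.07 to 1.87, while the pollen gene VGD1 was listed at 0 in every library. In RNA of many cell types together, fewer cells of a type and less RNA per cell cannot be told apart.

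Promoters from 3 groups of differences described here are shown first, since the share of genes with each motif differs between these groups. They are the 250 bases before the RefSeq gene start in the TAIR10.1 assembly, 5′ to 3′ on the gene's strand. Capitals mark P1BS matches, GNATATNC on either strand, in genes of the phosphate response that were lower in phr1 than in hho2-1. PAP14 is at chr2:19266457-19266706 on the minus strand, NPC4 at chr3:845097-845346 on the minus strand, SPX3 at chr2:18606160-18606409 on the plus strand and GDPD6 at chr5:2576820-2577069 on the minus strand.
PAP14: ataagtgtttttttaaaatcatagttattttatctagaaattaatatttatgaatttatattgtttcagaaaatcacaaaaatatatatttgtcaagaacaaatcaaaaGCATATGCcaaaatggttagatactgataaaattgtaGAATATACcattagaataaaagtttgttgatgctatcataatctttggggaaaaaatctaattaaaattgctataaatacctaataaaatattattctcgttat
NPC4: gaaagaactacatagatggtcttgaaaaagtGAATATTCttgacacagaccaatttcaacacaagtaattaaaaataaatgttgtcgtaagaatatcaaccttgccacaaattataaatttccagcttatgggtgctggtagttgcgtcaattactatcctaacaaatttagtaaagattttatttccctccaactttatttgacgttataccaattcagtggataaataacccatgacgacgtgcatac
SPX3: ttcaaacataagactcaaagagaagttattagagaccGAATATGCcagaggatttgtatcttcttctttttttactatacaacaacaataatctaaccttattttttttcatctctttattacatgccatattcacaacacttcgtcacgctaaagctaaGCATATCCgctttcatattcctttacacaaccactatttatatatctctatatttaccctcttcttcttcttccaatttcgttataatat
GDPD6: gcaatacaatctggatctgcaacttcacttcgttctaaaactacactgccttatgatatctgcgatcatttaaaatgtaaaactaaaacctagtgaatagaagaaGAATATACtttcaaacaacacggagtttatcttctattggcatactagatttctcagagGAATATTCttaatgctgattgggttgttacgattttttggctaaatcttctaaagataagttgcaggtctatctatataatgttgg
In the next promoter capitals mark a G box, CACGTG, of a seed storage gene that was also lower in phr1. SESA1 is at chr4:13607079-13607328 on the plus strand.
SESA1: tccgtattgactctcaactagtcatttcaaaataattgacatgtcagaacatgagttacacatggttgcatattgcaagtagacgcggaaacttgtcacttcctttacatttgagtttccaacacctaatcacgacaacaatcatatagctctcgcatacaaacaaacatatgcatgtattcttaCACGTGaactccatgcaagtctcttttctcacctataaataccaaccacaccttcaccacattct
In the last, capitals mark W boxes, TTGACC or TTGACT on either strand, the letters that WRKY factors bind, in a defence gene that was higher in phr1. CYP82C2 is at chr4:15462100-15462349 on the plus strand.
CYP82C2: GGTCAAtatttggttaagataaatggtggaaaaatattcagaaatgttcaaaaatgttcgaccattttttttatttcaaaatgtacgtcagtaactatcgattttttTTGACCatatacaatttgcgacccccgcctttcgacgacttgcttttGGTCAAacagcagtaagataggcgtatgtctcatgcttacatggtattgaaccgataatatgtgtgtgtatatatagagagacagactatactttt

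Each targeted gene was lowest in the libraries that carry its own mutant allele, to different degrees. PHR1 (AT4G28610, chromosome 4, 14132856 to 14135259) was at 7.54 FPKM in phr1 with an interval of 5.49 to 9.60, at 6.50 in hho2phr1, at 43.2 in hho2-1 and at 37.7 in Col-0. Its transcript was low in both libraries that carry the phr1 allele, and the intervals of the 2 single mutants did not overlap. HHO2 (AT1G68670, chromosome 1, 25782029 to 25784076) was at 59.8 FPKM in hho2-1 with an interval of 47.2 to 72.5, at 51.8 in hho2phr1, at 81.2 in phr1 and at 90.7 in Col-0. It was lowest in both libraries with the hho2 allele, but its log2 difference between the single mutants was 0.43 and their intervals overlapped. The nearest relatives that could be named in the table differed little: PHL1 was at 13.5 FPKM in phr1 and 13.1 in hho2-1, and HRS1 at 39.7 and 37.5.

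In all, 340 genes, 1.67% of those compared, were 2-fold apart. Of these, 195 genes (0.956%) were higher in phr1 and 145 (0.711%) lower. The median log2 difference of all genes compared was -0.0024, and 90% of them lay between -0.45 and 0.47. The authors' intervals were apart for 454 genes (2.23%) of any size, 259 of them higher in phr1 and 195 lower. Among the 2-fold genes they were apart for 114 of those higher (0.559% of genes compared) and 65 of those lower (0.319%). Many calls rest on low values: 73 of the 195 had less than 1 FPKM in hho2-1, and 97 of the 145 less than 1 in phr1, so these genes passed the minimum only through the library in which they were high. At the threshold, the 2-fold genes nearest to it stood at 1.01 and -1.0005 and the nearest others at 1.00 and -0.99. The balance of higher and lower calls depends on scaling, as phr1 held a larger FPKM sum than hho2-1. Of the 2-fold genes, 57.4% were higher in phr1 as deposited and 45.0% after both libraries were set to equal sums, a scaling that moves the median of all genes to -0.16.

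**Figure D1:**
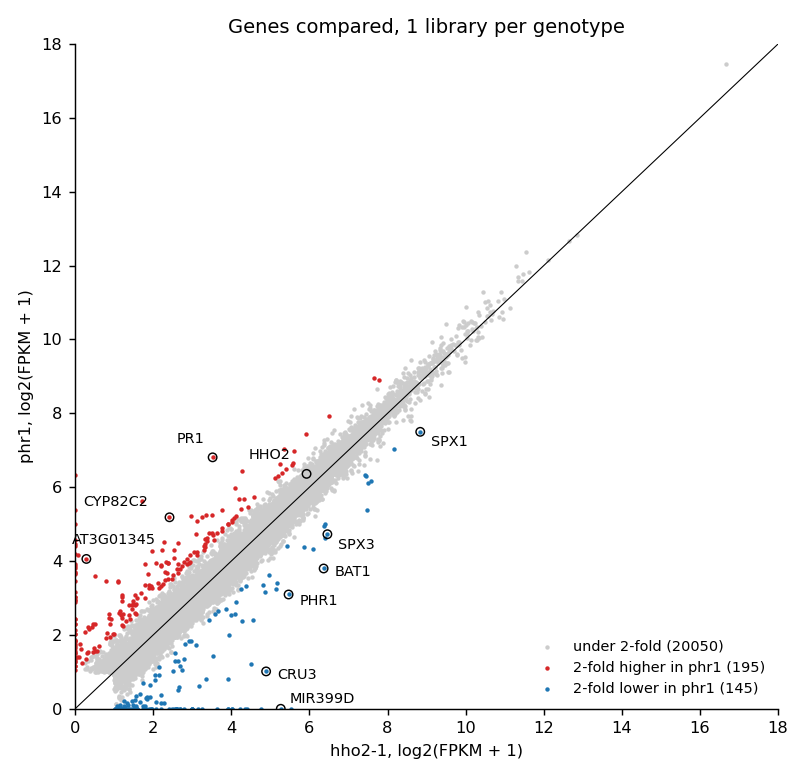
Level of each of the 20390 genes compared in the phr1 library (vertical axis) against the hho2-1 library (horizontal axis), both as log2(FPKM + 1), with the line of equality. Red points are the 195 genes 2-fold higher in phr1, blue points the 145 lower, and circled genes are named in the text. PHR1, SPX3, BAT1 and CRU3 lie below the line and PR1 and CYP82C2 above it, while HHO2 lies close to it.

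The first group lower in phr1 came from phosphate starvation genes. Of the 17 members of 4 phosphate lists that were 2-fold lower, Col-0 lay nearer to hho2-1 and the double mutant nearer to phr1 for 15, the exceptions being MIR827 and NMT3. Of all genes compared, 50.5% were lower in phr1 by any amount, 49.5% higher and 0.711% 2-fold lower. Of the 13 members of the list of phosphate sensing genes that passed the minimum, 10 were lower in phr1 and 5 were 2-fold lower, 2 of these (SPX1 and SPX3) with intervals apart, the others being precursor genes of miRNAs. Of 20 phosphatases and ribonucleases 18 were lower and 6 were 2-fold lower, of 22 lipid remodelling genes 20 were lower and 4 were 2-fold lower, and of 20 transport genes 13 were lower and 2 were 2-fold lower. None of these 4 lists had a member 2-fold higher, where 0.956% of all genes compared were. In lists of this size that lack lies near the share of all genes. Their median log2 differences were -0.67, -0.38, -0.52 and -0.17, beside -0.0024 over all genes.

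Among the sensors, SPX1 was the most abundant member that moved, at 456.4 FPKM in hho2-1, 444.2 in Col-0, 179.9 in phr1 and 179.4 in hho2phr1, a log2 difference of -1.34 between the single mutants. SPX3 stood at 87.0 FPKM in hho2-1, 101.5 in Col-0, 25.5 in phr1 and 27.1 in hho2phr1. For both genes the 2 libraries without the phr1 allele were high, the 2 with it were low, and no interval of the first pair met one of the second. SPX2 differed less, at 86.3 FPKM in hho2-1 and 61.5 in phr1, and SPX4 hardly, at 18.3 and 15.9. The ubiquitin-conjugating enzyme gene PHO2, the target of miR399 that limits phosphate transport, was at 77.5 and 82.2 FPKM.

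The non-coding members of the same module did not all follow. The miR399 precursor genes MIR399B and MIR399D had no signal in either library with the phr1 allele (both listed at 0), and stood at 13.98 and 37.5 FPKM in hho2-1. These loci span 135 and 100 bases, so a handful of fragments makes a large FPKM, and the lower bound of MIR399D was 0 in every library. IPS1, a decoy RNA that sequesters miR399, stood at 384.4 FPKM in hho2-1, 544.4 in Col-0, 242.1 in phr1 and 145.2 in hho2phr1. Its homologue AT4 went the other way, at 1514 FPKM in hho2-1 and 2120 in phr1, a log2 difference of 0.49, with Col-0 at 1959 and hho2phr1 at 1560.5. AT4 was lower in the 2 libraries with the hho2 allele and no lower in phr1 than in Col-0, but the intervals of the single mutants overlapped. MIR827 was 2-fold lower in phr1, but there hho2-1 alone was high, at 188.4 FPKM beside 71.4, 49.0 and 57.8 in phr1, Col-0 and hho2phr1, and the intervals overlapped.

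Acid phosphatases release phosphate from organic compounds, and the purple acid phosphatase gene PAP14 had the largest log2(FPKM + 1) difference among them, at -2.54. PAP14 was at 9.16 FPKM in hho2-1, 11.3 in Col-0, 0.75 in phr1 and 1.39 in hho2phr1, which makes hho2-1 12.3 times phr1. The purple acid phosphatases PAP5, PAP24, PAP23 and PAP22 had log2 differences of -1.48, -1.44, -1.25 and -1.0005, all with intervals apart. As a plain ratio of FPKM the gap of PAP5 was wider than that of PAP14, at 16.9 times, from 2.14 FPKM in hho2-1 and 0.13 in phr1. PECP1, a phosphatase for phosphoethanolamine and phosphocholine, stood at 286.7 FPKM in hho2-1 and 130.01 in phr1. By contrast the abundant secreted and vacuolar enzymes PAP12, PAP17 and PAP26 differed little, with log2 differences of -0.29, -0.10 and 0.21.

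Lipid remodelling genes ran parallel. NPC4, a phospholipase C that removes the phosphate-bearing head of phospholipids, was at 35.0 FPKM in hho2-1, 31.7 in Col-0, 9.59 in phr1 and 11.8 in hho2phr1. SQD2, which makes the sulfur-bearing lipid that stands in for phospholipid, was at 173.1, 185.2, 78.5 and 91.3 FPKM in the same order. GDPD6 of the glycerophosphodiester phosphodiesterase family was at 1.81 and 2.01 FPKM in hho2-1 and Col-0, and at 0.07 in each of phr1 and hho2phr1. In each of these 3 genes the 4 libraries fell into the same 2 pairs without overlap. The fourth 2-fold member, NMT3, differed in pattern: hho2-1 was at 16.3 FPKM and hho2phr1 at 12.2, above Col-0 at 9.28 and phr1 at 6.48, and it shares its interval with another gene. SQD1, the enzyme that supplies SQD2, stood at 87.9 and 84.0 FPKM in hho2-1 and phr1.

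Of the high-affinity phosphate transporters, only low-abundance members were 2-fold apart. PHT1;7 was at 1.84 FPKM in hho2-1, 1.34 in Col-0, 0.02 in phr1 and 0.17 in hho2phr1, and PHT1;2 at 10.99, 11.2, 4.90 and 2.44. The abundant root uptake carriers did not share this: PHT1;1 stood at 77.6 FPKM in hho2-1 and 80.3 in phr1, and PHT1;4 at 124.7 and 149.3. PHT1;1 and PHT1;2 are close copies, and how the authors divided reads between such copies is not stated. PHO1;H1, a homologue of the exporter PHO1 that loads phosphate into the xylem, lay just under 2-fold, at 32.4 FPKM in hho2-1, 26.9 in Col-0, 15.8 in phr1 and 12.1 in hho2phr1. It is 1 of the 20 compared genes nearest to HHO2, of which none was 2-fold apart, beside 1.67% of all genes compared.

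**Figure D2:**
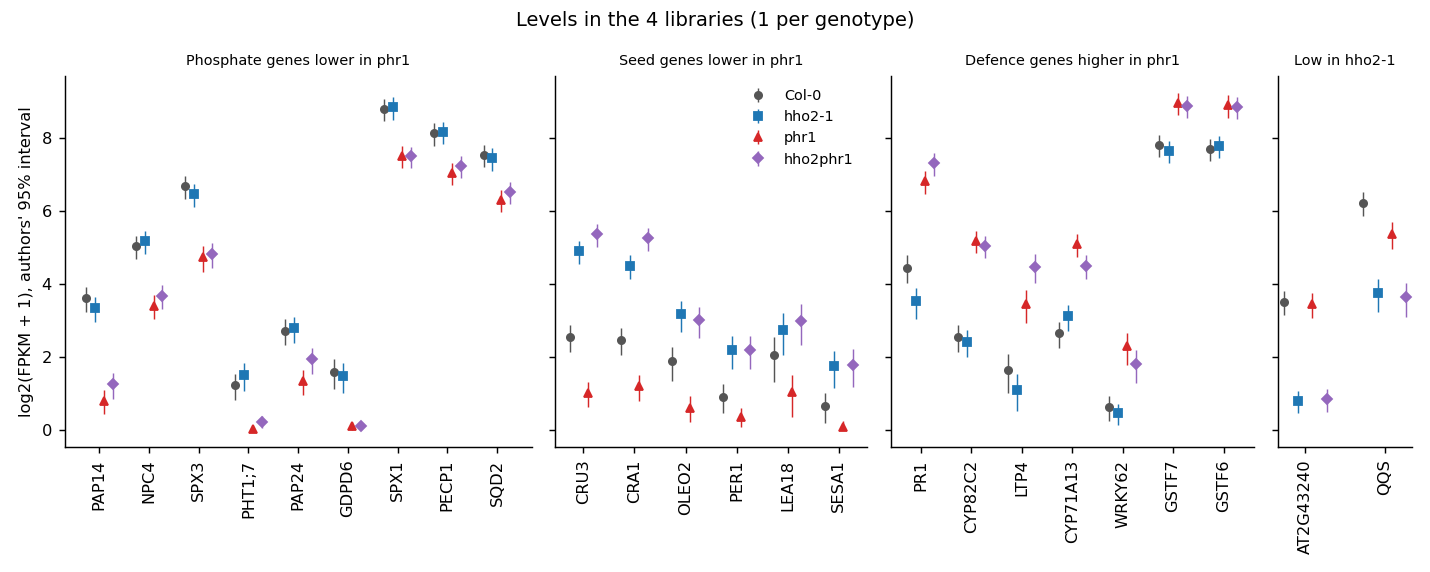
Levels as log2(FPKM + 1) in Col-0 (grey circles), hho2-1 (blue squares), phr1 (red triangles) and hho2phr1 (purple diamonds), with the authors' 95% intervals, for genes of 4 groups. In the phosphate and defence groups phr1 and hho2phr1 lie together, in the seed group hho2-1 and hho2phr1 lie together above Col-0, and in the last panel both libraries with the hho2 allele are low.

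Further genes of the same pattern stood outside these lists. BAT1, which encodes an acyltransferase that modifies brassinosteroids, was at 81.3 FPKM in hho2-1, 95.5 in Col-0, 12.9 in phr1 and 17.5 in hho2phr1. Its log2 difference of -2.57 was larger than that of any phosphate sensor with intervals apart, while the median of the 16 brassinosteroid genes was -0.08. In that list UGT73C5, a glucosyltransferase gene whose product inactivates brassinosteroids, went the other way, at 36.2 FPKM in phr1, 40.1 in hho2phr1, 13.4 in Col-0 and 16.3 in hho2-1. AT5G17340, annotated as a putative membrane lipoprotein, was at 22.7, 25.7, 4.25 and 3.57 FPKM in the same order. AT2G45135, a RING/U-box gene 970 bases downstream of SPX3 on the same strand, chosen after its values were seen, had a log2 difference of -1.53.

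A second group of genes lower in phr1 was of another kind, and its member CRU3 had the largest difference among lower genes with intervals apart. These were genes of seed filling and embryo maturation, which encode storage proteins, oil-body proteins and desiccation protectants and are normally silent in seedlings. CRU3, a cruciferin storage globulin, was at 28.7 FPKM in hho2-1 and 40.1 in hho2phr1, at 4.84 in Col-0 and at 1.02 in phr1, a log2 difference of -3.88. The cruciferin gene CRA1 was at 21.6, 37.2, 4.53 and 1.31 FPKM in the same order. OLEO2, an oil-body oleosin, was at 8.09, 7.02, 2.71 and 0.53 FPKM, and the antioxidant gene PER1 at 3.56, 3.55, 0.88 and 0.29. In each, the 2 libraries with the hho2 allele were high, Col-0 was lower and phr1 lowest.

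Only 10 of the 25 listed seed genes reached the minimum, and the others were below it in both single mutants, so the list median of -1.98 describes those 10 and was -0.45 over all 25. Of the 10, 8 were 2-fold lower in phr1, each with intervals apart, and BGLU19 and OLEO1 among them share an interval with another gene. Of all genes compared, 0.711% were 2-fold lower. All 10 reached 1 FPKM in hho2-1 but only 5 did in phr1. The rest passed the minimum only through hho2-1, where they were high, so the minimum itself favoured this direction. DGAT2, an oil synthesis gene also used in leaves, did not follow, at 30.3 FPKM in hho2-1 and 29.7 in phr1. The regulators ABI3, FUS3, LEC1 and LEC2 were among those below the minimum. The summed level of the 25 genes was 123.7 FPKM in hho2-1, 151.8 in hho2phr1, 56.4 in Col-0 and 38.05 in phr1. These sums include DGAT2, which made up most of the sum in phr1. Genes of like annotation outside the list, named after their values were seen, were lower in phr1 too: the seed aquaporin gene TIP3;1 had a log2 difference of -1.73, and the late embryogenesis gene LEA7, which shares its interval, -1.56. This list is also the marker list of seed and embryo tissue, and how much of such tissue each library held was not tested. CRU3 lies among the 20 compared genes nearest to PHR1 and was the only one of them 2-fold apart, beside 1.67% of all genes compared.

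Among the genes higher in phr1 were defence genes. Of the 195, only 23 belonged to any list, and 15 of these to the lists of camalexin, salicylate, jasmonate and lipid transfer genes. In that order these lists held 15, 26, 25 and 15 genes that passed the minimum. Of all genes compared, 0.956% were 2-fold higher. The lists were chosen with earlier results known, so the 15 do not show how much of the 195 is defence. PR1, the classical marker of salicylate-dependent resistance, was at 111.1 FPKM in phr1, 157.3 in hho2phr1, 20.8 in Col-0 and 10.48 in hho2-1, so phr1 stood at 10.6 times hho2-1. Both libraries with the phr1 allele were above both others, and hho2-1 was the lowest. The P450 gene CYP82C2, which acts in the synthesis of indolic defence compounds, was at 35.4 FPKM in phr1, 32.1 in hho2phr1, 4.84 in Col-0 and 4.34 in hho2-1. CYP71A13, which makes a precursor of the phytoalexin camalexin, was at 32.9, 21.7, 5.27 and 7.71 FPKM in the same order.

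Of the 15 genes of camalexin and indolic defence that passed the minimum, 14 were higher in phr1, 6 of them 2-fold with intervals apart, and the list median was 0.47. The glutathione transferase genes GSTF6 and GSTF7, adjacent and close in sequence, were the most abundant of these. GSTF6 stood at 475.3 FPKM in phr1 and 220.1 in hho2-1, and GSTF7 at 497.9 and 198.9. PDR12, an ABC transporter gene of the pleiotropic drug resistance family, was at 16.9 FPKM in phr1, 14.7 in hho2phr1, 3.83 in Col-0 and 6.73 in hho2-1. PAD3, the last enzyme of camalexin synthesis, differed less, at 31.5 and 24.9 FPKM. CYP71A12 and CYP71A13 are close copies, so the division of reads between them is uncertain.

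Of 26 salicylate genes 20 were higher in phr1, with a median of 0.44, but only PR1, WRKY62 and WRKY46 were 2-fold higher. WRKY62 was at 3.90 FPKM in phr1 and 2.48 in hho2phr1, and under 1 in Col-0 and hho2-1. The salicylate synthesis gene ICS1 was at 20.6 FPKM in phr1 and 14.5 in hho2-1, and the receptor gene NPR1 at 23.1 and 22.2. PR2, a glucanase gene often read together with PR1, was at 6.197 FPKM in phr1 and 7.49 in hho2-1. The salicylate genes thus did not move as a block.

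Most of the listed small secreted proteins showed the same direction. In the list of lipid transfer proteins and the AZI1 cluster 12 of 15 were higher in phr1, 4 of them 2-fold, and the median was 0.50. Intervals were apart for 7 higher and 1 lower. Against Col-0 the list medians were 0.36 in phr1, -0.30 in hho2-1 and only 0.10 in hho2phr1. LTP4 was at 9.98 FPKM in phr1, 21.3 in hho2phr1, 2.15 in Col-0 and 1.15 in hho2-1, and its neighbour LTP3 at 11.7, 25.5, 5.85 and 4.15. AT4G12490 of the AZI1 cluster was at 21.8, 38.8, 6.76 and 3.82 FPKM. In these 3 genes the double mutant exceeded phr1. Touch and rapid stress genes were higher in phr1 in 18 of 19 cases with a median of 0.37, but only the transcription factor genes ZAT11 and ERF6 reached 2-fold, and ERF6 no longer did after scaling to equal sums.

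**Figure D3:**
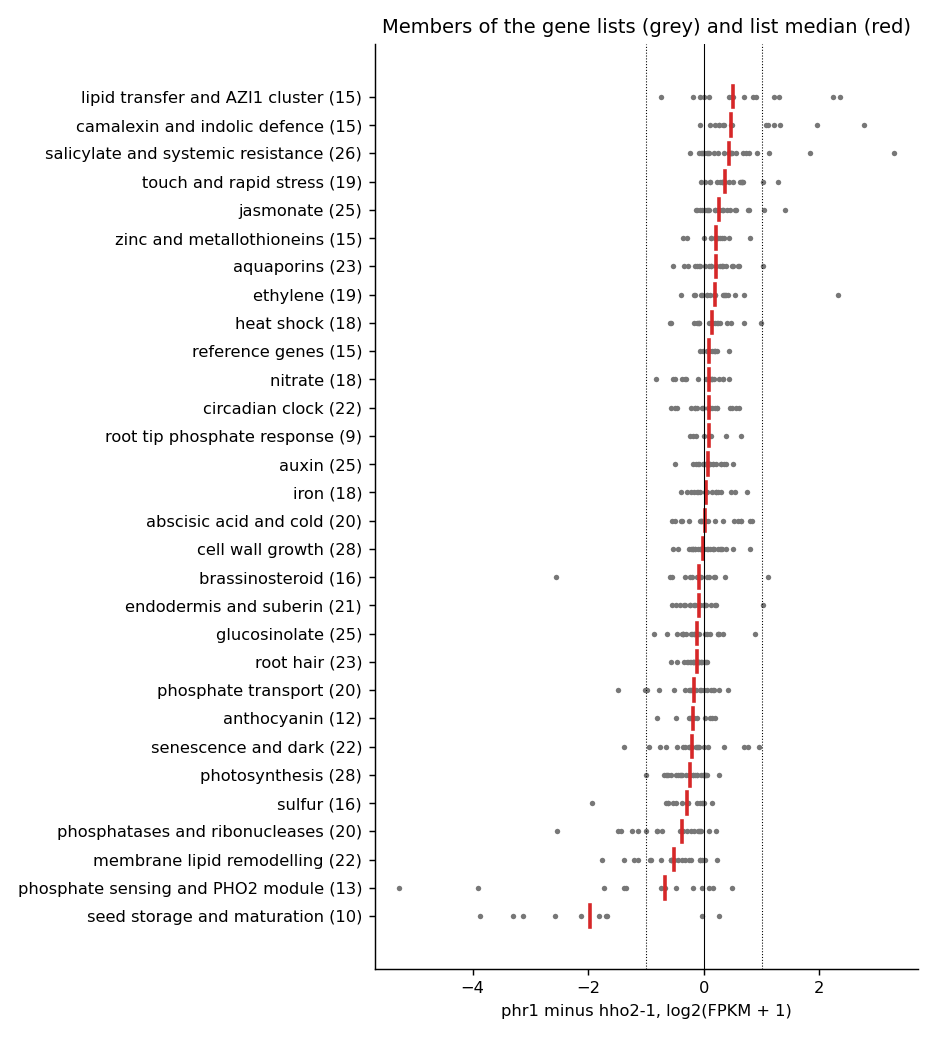
Log2 difference, phr1 minus hho2-1, of each member that passed the minimum (grey points) and list median (red bars) for the lists with at least 5 such members, whose number stands in parentheses. Dotted lines mark 2-fold. Seed, phosphate and lipid lists lie to the left of 0 and defence lists to the right, while most other lists sit close to 0.

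Other single genes stood among the 15 most different on each side. ARD3, an acireductone dioxygenase of methionine salvage and the only 2-fold member of the ethylene list (14 of 19 higher, median 0.19), was at 9.78 FPKM in phr1, 8.33 in hho2phr1, 1.60 in Col-0 and 1.15 in hho2-1. AT2G41730, annotated as a calcium-binding site protein, was at 85.3, 112.2, 22.4 and 18.22 FPKM, and the MATE efflux gene AT2G04050 at 36.3, 38.8, 6.61 and 6.87. AT1G21525 was at 48.1, 38.2, 6.26 and 2.29 FPKM, next to AT1G21520 on the same strand, which was also 2-fold higher. AT2G01310, which spans only 162 bases, was at 11.7, 15.2, 1.61 and 0 FPKM. AT4G12735 was at 18.4, 24.9, 4.56 and 2.90 FPKM in the same order, and AT4G21730 at 18.6, 21.2, 3.35 and 3.70. All of these followed the same pairing of libraries as the defence genes. On the lower side, AT5G35660, AT2G05580, AT2G27380 and AT2G15010 had log2 differences of -2.10, -2.08, -2.04 and -1.89. In each of them phr1 was the lowest library, under 1 FPKM, and hho2phr1 lay nearer to hho2-1.

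Some genes higher in phr1 were divided by the hho2 allele instead, with hho2-1 the single mutant that differed from Col-0. For 25 of the 195 (12.8%) Col-0 lay nearer to phr1 and hho2phr1 nearer to hho2-1. That share was 14.7% among all genes higher in phr1. AT2G43240, a nucleotide-sugar transporter family gene, was at 0.75 FPKM in hho2-1 and 0.79 in hho2phr1, but at 9.92 in phr1 and 10.47 in Col-0. The orphan gene QQS, named for its effect on leaf starch, was at 12.6 and 11.5 FPKM in hho2-1 and hho2phr1, and at 40.4 in phr1 and 73.9 in Col-0. In both genes the 2 libraries with the hho2 allele were low and their intervals lay below those of the other 2. For some others only hho2-1 stood apart: the tonoplast aquaporin gene TIP2;3 was at 6.75 FPKM in hho2-1 and at 14.7, 14.8 and 14.5 in phr1, Col-0 and hho2phr1, and the thionin gene THI2.2 at 2.68 in hho2-1 and at 8.71, 11.9 and 13.6. In the same way BGLU28, a myrosinase-type glucosidase gene of the sulfur starvation response, was at 14.3 FPKM in hho2-1 and at 3.01, 5.90 and 5.02 in the others. A change seen in 1 library of 4 has no second library to set it against.

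A few large differences were of that kind. AT3G01345 was at 15.6 FPKM in phr1 and at 0.22, 0.28 and 0.33 in hho2-1, Col-0 and hho2phr1, so the double mutant, which carries the same phr1 genotype label, did not share it. AT2G13422 was listed at 0 in hho2-1 and at 79.9, 18.8 and 11.1 FPKM in phr1, Col-0 and hho2phr1, but spans only 105 bases.

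The position of the 2 other libraries was also counted across all calls, and some shares lay near those of all genes. Of the 195 genes 2-fold higher in phr1, Col-0 lay nearer to hho2-1 for 138 (70.8%) and hho2phr1 nearer to phr1 for 127 (65.1%), and both held for 95 (48.7%). Among all genes higher in phr1 by any amount these shares were 49.6%, 63.0% and 27.3%. With intervals apart, both held for 74 of 114 genes (64.9%). In hho2phr1 against Col-0, a comparison that shares no library with phr1 against hho2-1, 140 of the 195 (71.8%) had the same sign, beside 61.0% of all genes higher in phr1, and with intervals apart 100 of 114 (87.7%). For 14 of the 195 both libraries were listed at 0, and without genes at equal levels the shares were 77.3% and 61.1%.

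The 145 genes lower in phr1 were divided. For 42 (29.0%) Col-0 lay nearer to hho2-1 and the double mutant nearer to phr1, the pattern of the phosphate genes. For 34 (23.4%) the reverse held, the pattern of CRU3 and of 6 of the 8 listed seed genes that were 2-fold lower. For the other 2, OLEO1 and LEA18, and for TIP3;1 and LEA7, Col-0 also lay nearer to hho2-1. For 38 both libraries lay nearer to phr1, so that hho2-1 was the outlying library. Of these 38, 29 had Col-0 and hho2phr1 both listed at 0. For 31 both lay nearer to hho2-1. Across all genes lower in phr1 the first 2 patterns took 24.6% and 14.3%. The last 2 patterns held for 3999 and 2289 of those 10288 genes, so 38 and 31 of 145 were no larger shares. The sign of hho2phr1 against Col-0 matched for 55 of the 145 (37.9%), beside 63.7% of all genes lower in phr1. Without genes at equal levels, among them the 29 with Col-0 and hho2phr1 both listed at 0, the shares were 47.4% and 63.9%. Without the seed list the sign matched for 55 of 137 (40.1%).

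**Figure D4:**
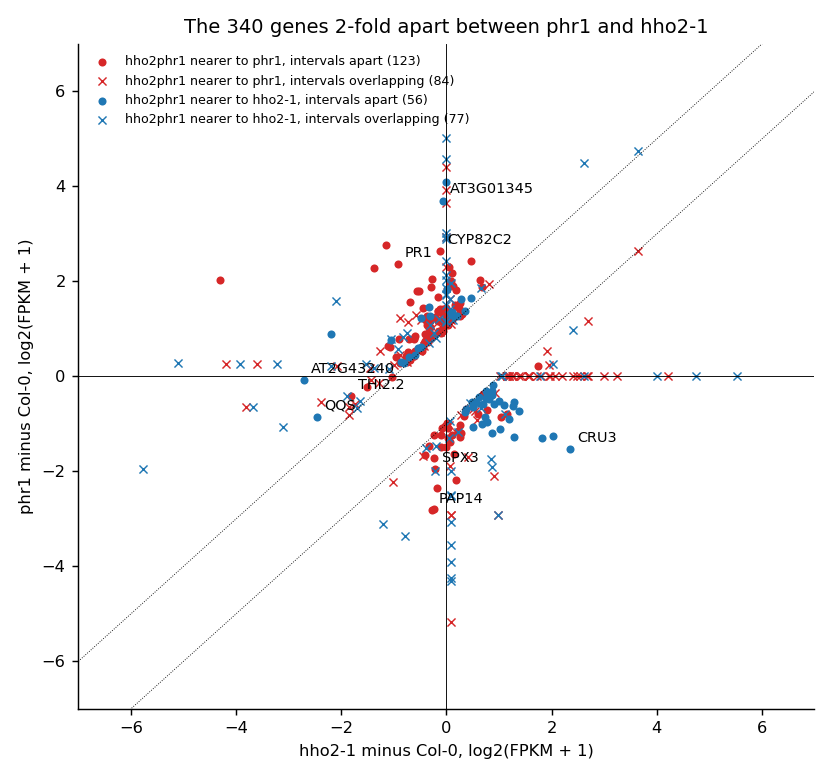
The 340 genes 2-fold apart between phr1 and hho2-1, by their difference from Col-0 in hho2-1 (horizontal) and in phr1 (vertical), both log2(FPKM + 1). Red marks genes for which hho2phr1 lies nearer to phr1 and blue those for which it lies nearer to hho2-1, filled where the authors' intervals are apart, and the dotted lines mark the 2-fold threshold that empties the band between them. PR1 and CYP82C2 lie above and SPX3 and PAP14 below the origin in red, CRU3 lies to the lower right and QQS and AT2G43240 to the left in blue. Both axes share the Col-0 library, so the plot shows where genes lie and no relation between the axes.

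Promoter letters followed the same division. A P1BS match stood in the 300 bases from 250 before to 50 after the gene start in 6.08% of 32809 promoters of the assembly and in 6.396% of those of genes compared. It stood in 21 of 138 promoters (15.2%) of genes lower in phr1 and in 16 of 65 (24.6%) with intervals apart. Among lower genes with Col-0 nearer to hho2-1 and hho2phr1 nearer to phr1 it stood in 17 of 42 (40.5%), and among those with hho2phr1 nearer to hho2-1 in 1 of 63 (1.59%). In genes higher in phr1 the share was 6.04%, that of the background. The sequences of PAP14, SPX3 and GDPD6 shown at the start hold 2 matches each in the 250 bases, at -141 and -104, -213 and -90, and -145 and -86 from the start, and NPC4 holds 1 at -219. The match in SPX1 lies 22 bases after its annotated start.

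By list, P1BS stood in 7 of 13 sensing genes, 10 of 20 phosphatases, 11 of 22 lipid genes and 5 of 20 transport genes that passed the minimum and had a promoter in the annotation. The fully symmetric form GAATATTC, known as a site of the HRS1 and HHO family and itself a P1BS match, was rarer, at 1.05% of genes compared, and stood in 5 of the 42 promoters just named, NPC4 and GDPD6 among them. The shorter GAATC, which HHO proteins can also bind, occurred in 45.1% of promoters of genes compared, in 48.6% of those lower and 39.0% of those higher in phr1. The W box stood in 87 of 182 promoters (47.8%) of genes higher in phr1, beside 32.9% of genes compared, and CYP82C2 holds 3. By list it stood in 7 of 15 camalexin genes (46.7%) but in only 7 of 26 salicylate genes (26.9%). The heat shock element, GAANNTTC or TTCNNGAA, stood in 27.5% of promoters of genes higher in phr1, beside 19.0% of genes compared. It was not particular to them, at 18.8% of genes lower in phr1 and 24.6% of those with intervals apart. By list it stood in 9 of 20 phosphatases and 10 of 22 lipid genes, but in 2 of 13 sensing and 2 of 20 transport genes. GAATATTC is itself a match to it. The G box stood in 13 of 63 promoters (20.6%) of lower genes with hho2phr1 nearer to hho2-1, beside 8.65% of genes compared, among them SESA1, PER1 and LEA18. A match describes letters, not binding, and these shares carry no test.

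**Figure D5:**
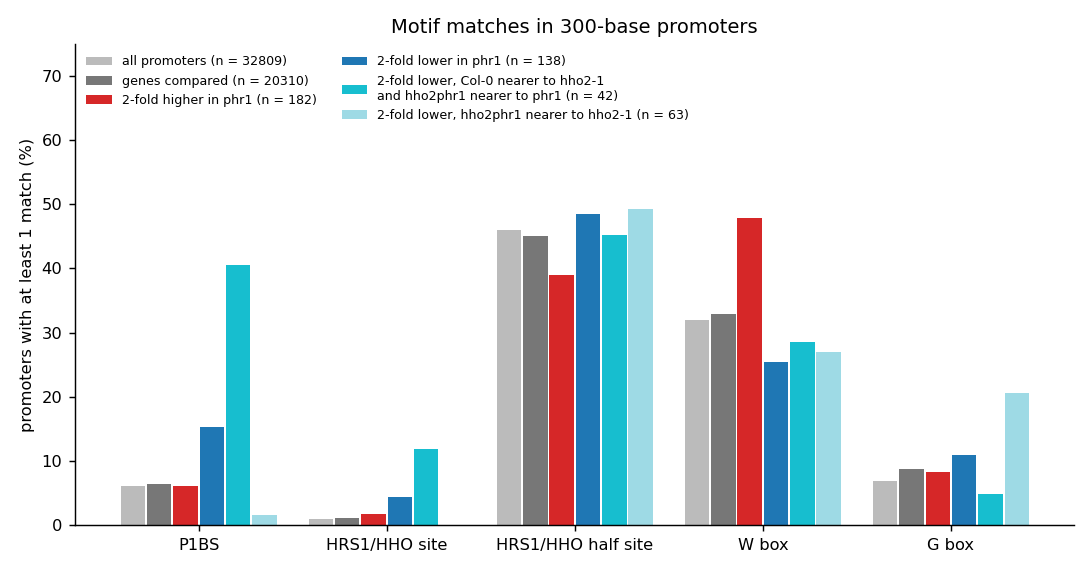
Percentage of 300-base promoters with at least 1 match to each motif, for all promoters, the genes compared and 4 sets of genes 2-fold apart, with the number of promoters in the key. The P1BS bar is highest, at 40.5%, for lower genes that pair Col-0 with hho2-1, the W box bar at 47.8% for genes higher in phr1, and the G box bar at 20.6% for lower genes with hho2phr1 nearer to hho2-1.

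Lists beyond these held few 2-fold members, where 1.67% of all genes compared were 2-fold apart. None of the photosynthesis genes was 2-fold apart, but 22 of 28 were lower in phr1 and their median was -0.23. The light-harvesting gene LHCB1.1 came nearest, at 106.3 FPKM in phr1, 212.7 in hho2-1, 187.9 in Col-0 and 293.5 in hho2phr1. The double mutant was the highest library, not an intermediate one, and near-identical LHCB1 copies such as LHCB1.3 differed by 0.00, so the division of reads among copies limits this value. Of 23 root hair genes 20 were lower in phr1, none 2-fold, with a median of -0.12. Of 16 sulfur genes 14 were lower with a median of -0.29, and only BGLU28 was 2-fold lower. Of 22 senescence and dark response genes 17 were lower with a median of -0.21, and the intervals were apart for 3 higher and 3 lower. Only DIN2, a glucosidase gene induced by darkness, was 2-fold lower, at 31.2 FPKM in phr1, 83.2 in hho2-1, 54.4 in Col-0 and 48.2 in hho2phr1. Jasmonate genes were higher in phr1 in 21 of 25 cases with a median of 0.26, and JAZ7 and THI2.2 were 2-fold higher.

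Among metal genes, MT1A, a metallothionein that alone held 17.2% of all FPKM in phr1 and 11.2% in hho2-1, had a log2 difference of 0.79. Of 15 zinc and metallothionein genes 13 were higher with a median of 0.22. The iron list was level with a median of 0.04, and its largest difference was 0.75 for the nicotianamine synthase gene NAS1. The nitrate list, of interest because HHO2 and its relatives respond to nitrate, had a median of 0.09 and no member 2-fold apart. The nitrate transporter gene NRT2.5 came nearest, at 1.32 FPKM in phr1, 3.097 in hho2-1, 1.75 in Col-0 and 3.2003 in hho2phr1. The circadian, auxin, cell wall, abscisic acid and heat shock lists had medians between -0.02 and 0.15, and none had a member 2-fold apart. They held 22, 25, 28, 20 and 18 genes that passed the minimum, and the nitrate list 18. As only 1.67% of all genes compared were 2-fold apart, the lack of such members in these lists lies near that share. After scaling to equal sums the medians of the nitrate, iron, circadian, auxin, abscisic acid and heat shock lists lie below 0, as does the median of all genes.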

How the data were processed

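Poly(A)+ RNA of 4 genotypes was sequenced, 1 library each. The labels' protocols name the ScriptSeq v2 kit. TopHat2 2.0.11, Cuffdiff 2.2.1 and the TAIR10 build are named in the submitters' processing notes. The library type given to these tools and the scaling between libraries are not given in the sources used here. The deposited values are FPKM per gene, with a 95% interval and a quantification status, per the file headers. Columns named WT and dbl were read as Col-0 and hho2phr1.

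Here log2(FPKM + 1) was subtracted, phr1 minus hho2-1, over genes with at least 1 FPKM in either, and a difference of at least 1 was called 2-fold. Col-0 and hho2phr1 were assigned to the nearer single mutant at the midpoint of that scale. The code was tested on simulated data. No test was run, because no group holds more than 1 library. Of all genes in the table, 32810 matched the TAIR10.1 annotation of RefSeq, which gave symbols, strands, gene starts and the promoter letters. Gene levels keep the table's own coordinates. In the comparison 3390 genes share an interval with another gene and are marked where named. The status was other than OK for 7 genes compared.

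Depth was estimated from intronless genes with low values, of which FPKM times the length less 204 bases steps by whole fragments. Of 209 to 242 such genes per library, 100% lay within 0.1 of a whole number. The depth, within a set range, and the 204 bases were chosen to make these same values whole, so this is no check of the estimate. If the deposited values were scaled between libraries, the estimate is of a scaled size. In phr1, 1 fragment on 1000 bases gives 0.0318 FPKM. The half-width of the authors' interval was 22.8% of FPKM at the median gene with 10 FPKM or more.

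The 33 gene lists, with 652 entries found in the table, and all rules were chosen with earlier results of these data known, so no list is independent evidence of its direction. Named genes are PHR1, HHO2 and the 15 highest and 15 lowest differences. These 15 on each side came from genes with status OK in all 4 libraries, an interval of their own and intervals apart. Also named are each list's 2-fold members, or otherwise its member with the largest difference, and list members cited for contrast. Of lists without a 2-fold member, that with the largest difference is given only where the list is described by gene. Other genes are said to have been chosen after their values were seen. Alternatives changed the pseudocount, minimum, scaling, fold, genes kept, rule for nearer and promoter window. Computation used Python 3.11.15 with pandas, numpy, scipy and matplotlib.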

Additional observations from a re-analysis of the deposited data

How the results depend on the processing

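No paired analysis was possible because each genotype has 1 library, and no replicate could be left out. The counts of 195 genes higher and 145 lower in phr1 moved by over 1.5 times with the pseudocount (313 and 234 at 0.1, 69 and 53 at 5), with a minimum of 1 FPKM in both libraries (122 and 48), with intervals apart (114 and 65), with a 1.5-fold call (611 and 486) and with a 4-fold call (42 and 44). The count of lower genes also moved with a minimum of 5 FPKM in either (71) and, in an alternative chosen after seeing the data, with intervals of at least 300 bases only (83). By construction these settings weigh low and short genes differently. With no minimum, with any of 3 scalings, without shared intervals, with protein-coding nuclear genes only and with status OK only, both counts stayed within 1.5 times. With intervals apart, the share of higher genes with Col-0 nearer to phr1 fell from 29.2% to 21.9%, that with hho2phr1 nearer to phr1 changed from 65.1% to 79.8%, and the shares of lower genes with P1BS and a G box changed from 15.2% to 24.6% and from 10.9% to 18.5%. No named difference changed sign. Of 65 named genes, 28 left 2-fold at a pseudocount of 5, among them PHT1;7, GDPD6, WRKY62 and TIP2;3, and 7 after scaling to equal sums, among them WRKY46, GSTF6 and CYP71A12. Under equal sums 8 of 33 list medians changed sign, those of the reference, nitrate, iron, auxin, circadian, abscisic acid, heat shock and root tip lists, and none changed its side of the median of all genes. Depth limits low genes: differences of members under 1 FPKM in 1 library rest on few fragments.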

Other observations

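The flowering-time gene FT, which encodes the mobile florigen, was at 4.68 FPKM in hho2-1, 2.33 in Col-0, 1.92 in hho2phr1 and 1.05 in phr1, with the intervals of the single mutants apart. It was chosen after its values were seen, and hho2-1 was the highest library.

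Genes 2-fold apart with intervals apart lay next to each other in a few places. Within 5000 bases, 10 pairs were found among the 179 such genes, and 9 of them had both members in the same direction. Neither number was counted over all genes compared, so they do not show that called genes cluster. They include GSTF7 with GSTF6, LTP4 with LTP3, and AT4G12490 with AT4G12500, which are copies of each other, and SPX3 with AT2G45135 and AT1G21520 with AT1G21525, which lie on the same strand. The pair in opposite directions overlaps: AT2G27228 was higher by 1.15 and LHW lower by 1.90 in phr1 on the log2 scale, and both share intervals, so the division of reads between them is uncertain.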
